A study of Ictalurus furcatus with 6 samples.

Results

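The voltage-dependent anion channels (VDACs) and the ADP/ATP carriers were examined in testicular sperm of blue catfish (*Ictalurus furcatus*). A feature of the expression table was kept where its gene name equalled *vdac1*, *vdac2*, *vdac3*, *slc25a4*, *slc25a5* or *slc25a6*, without regard to case. The rule used names only and no expression value, but the genes were chosen with earlier results of these data known. It kept 7 of 27416 features, of which 3 are VDACs, all named *vdac2*, and 4 are carriers, 3 of them named *slc25a5* and 1 named *slc25a4*. No feature carried the name *vdac1*, *vdac3* or *slc25a6* (0 features each).

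Mature males of the strain D&B were used, and their age is not given in the labels. Sperm from dissected testes went straight into liquid nitrogen in the fresh-frozen group (F). In the cryopreserved group (C) it was diluted in a salt solution, given methanol as cryoprotectant and cooled in straws at a controlled rate. The authors describe the cryopreserved sperm as extracted from testis tissue and name no such extraction for the fresh-frozen samples. A difference in preparation cannot be told apart from cryopreservation here. Both kinds of sample were thawed in the same way before RNA extraction, so fresh-frozen sperm had also been frozen once, without the methanol. Samples are numbered by male: F2 and C2 came from male 2, F3 and C3 from male 3, and C5 from male 5. The comparison therefore rested on 2 fresh-frozen and 3 cryopreserved samples, with no fresh-frozen partner for C5. F5 has no column in the expression table, and the authors list it as excluded beside a low share of mapped reads. Polyadenylated RNA was sequenced, and the values were read as CPM, which are not divided by gene length.

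VDACs are barrel-shaped pores in the outer mitochondrial membrane, through which ATP, ADP, phosphate and small metabolites cross. ADP/ATP carriers span the inner membrane and exchange ATP made in the matrix for ADP, so pore and carrier together connect ATP synthesis with the rest of the cell. In a sperm cell the mitochondria sit in the midpiece at the base of the flagellum. In mice, loss of *Vdac3* leaves sperm with defective motility, and male germ cells depend on a carrier of their own, *Slc25a31*.

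Of the 7 features, 1 was called higher after cryopreservation, against 1.54% of all features tested. It was a *vdac2* feature, spelled *VDAC2* in the table, whose mean was 62.8-fold that of the fresh-frozen group. This call was lost in 4 of 17 other fits, as was every other call of the table. The other 2 *vdac2* features, the main *slc25a5* feature and another *SLC25A5* feature were higher in every cryopreserved sample than in both fresh-frozen samples without passing the test. *SLC25A4*, the carrier that dominates in muscle and heart of mammals, was the 1 feature lower in every cryopreserved sample, and it also missed the test. Of all features tested, 13.6% were higher and 41.7% lower in every cryopreserved sample. Tests were made with limma on log2(CPM + 1), and a feature was called where its log2 fold change was above 2 or below -2 and its FDR, the Benjamini-Hochberg adjusted *p*-value over all 27255 features tested, was below 0.05. All 7 features passed the filter on low values, a group mean of more than 1 CPM in either group.

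Some properties of the whole table bear on every value below. The median CPM of a feature was 15.7 in F2 and 15.6 in F3, between 9.55 and 15.0 in C2 and C3, and 2.03 in C5, and 2664 features were at 0 in C5. The median log2 fold change of all features tested was -1.02, with the median feature 0.74 below the fresh-frozen mean in C2, 0.21 below it in C3 and 1.93 below it in C5 (log2). A value of a member is therefore also given relative to this median. The table holds no read counts, and intervals for counting error were not computed.

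The spread of the members over the samples is best seen on a log axis of CPM.

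**Figure D1:**
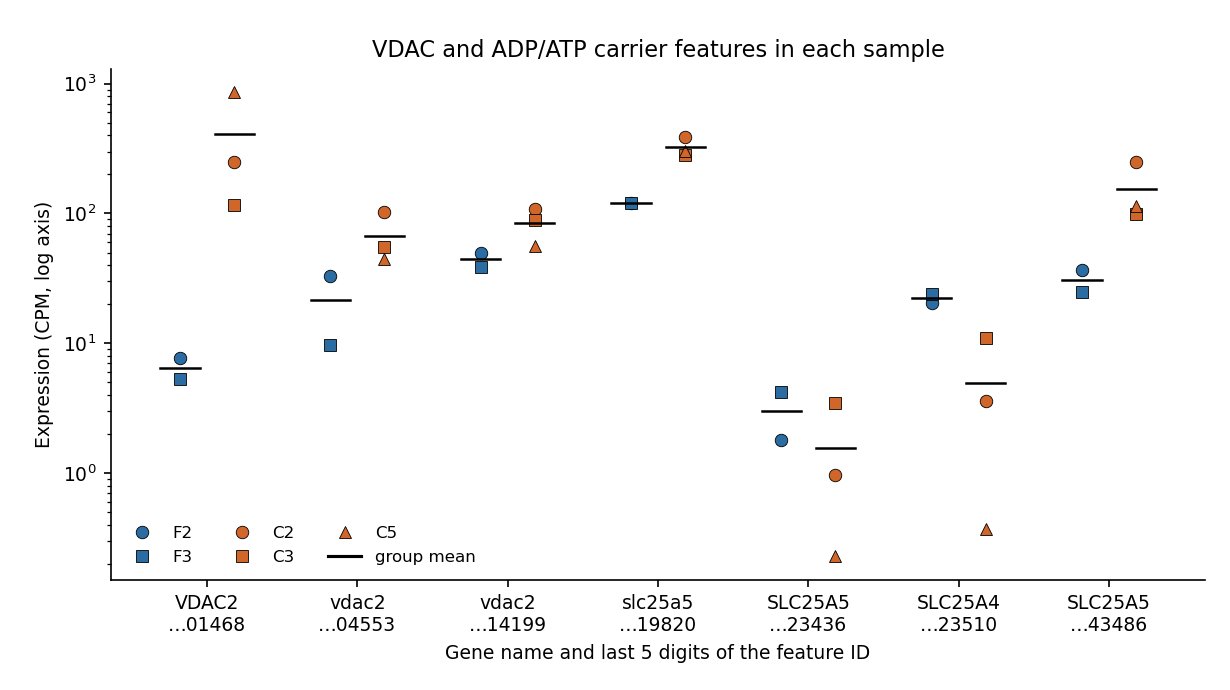
CPM (log axis) of the 7 VDAC and ADP/ATP carrier features in fresh-frozen samples F2 and F3 (blue) and cryopreserved samples C2, C3 and C5 (orange), with the symbol giving the male and a bar the group mean. *VDAC2* lay between 5.34 and 7.65 CPM in the fresh-frozen samples and between 116 and 859.9 CPM in the cryopreserved samples, whereas the values of *SLC25A5* AUIFUG00000023436 overlapped.

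*VDAC2* (AUIFUG00000001468) carries the name of the VDAC that, in mammals, also binds the cell death protein BAK in the outer membrane. Its CPM was 7.65 in F2 and 5.34 in F3, against 247 in C2, 116 in C3 and 859.9 in C5. The groups did not overlap, and C5 stood highest by a wide margin. Its fresh-frozen mean was 6.50 ± 1.64 CPM (SD, n = 2), and its cryopreserved mean was 407.8 ± 397.0 CPM (SD, n = 3). The log2 fold change was 5.30 with an SE of 0.86 (limma FDR = 0.0117), or 6.32 above the median of all features. It ranked 21 in log2 fold change, with 0.0734% of the tested features above it. Called higher were 1 of the 7 members and 1.54% of all features tested, and called lower were 0 of the 7 members and 0.0% of all features.

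Within 1 male the difference had the same direction. *VDAC2* was 32.3-fold higher in C2 than in F2 and 21.8-fold higher in C3 than in F3. Ranked among all features of a sample, it stood at percentile 35.5 in F2 and 26.1 in F3, and at 97.7 in C2, 93.1 in C3 and 99.4 in C5. The pore gene thus stood in the lower part of the ranking in both fresh-frozen samples and near its top in each of the 3 cryopreserved samples. The 2 technical replicates of C2 read 247.3 and 247.2 CPM.

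The FDR depended on the scaling and on C2. The log2 fold change stayed between 4.53 and 6.44 in the 17 other fits, and the FDR was above 0.05 in 4 of them: 0.0606 after TMM rescaling, 0.14 after median centring, 0.106 with a constant prior and 0.363 without C2. With the male as a replicate block the log2 fold change was 4.53 (SE 0.66, FDR = 1.92e-09), the same as without C5, since C5 has no partner. The SE and FDR of that fit rest on the prior of limma and do not measure the spread between males. Those of the fits without F2 and without F3, which are among the 17, rest on the prior as well.

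The *vdac2* feature AUIFUG00000004553 had 33.2 CPM in F2 and 9.73 in F3, against 103 in C2, 54.7 in C3 and 44.4 in C5. The groups did not overlap, although F2 and C5 lay close together and the fresh-frozen samples differed more than 3-fold. The means were 21.5 ± 16.6 CPM (SD, n = 2) and 67.4 ± 31.3 CPM (SD, n = 3), with a log2 fold change of 1.74 (SE 0.85, limma FDR = 0.265). It was 2.58 without F2 and 0.91 without F3, and 2.95 after TMM rescaling. The third *vdac2* feature, AUIFUG00000014199, had 49.9 CPM in F2 and 39.0 in F3, against 109 in C2, 88.7 in C3 and 55.9 in C5. The groups were apart by a narrow gap between F2 and C5. Its means were 44.5 ± 7.72 CPM (SD, n = 2) and 84.4 ± 26.6 CPM (SD, n = 3), with a log2 fold change of 0.87 (SE 0.69, limma FDR = 0.394).

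These 2 features differed from *VDAC2* in which cryopreserved sample was highest. Both had their highest value in C2 and their lowest in C5, where *VDAC2* was highest. Within male 2 the first was 3.11-fold and the other 2.17-fold higher in the cryopreserved sample, and within male 3 they were 5.62-fold and 2.27-fold higher. Relative to the median of all features, their log2 fold changes were 2.76 and 1.89.

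*VDAC2* made up 8.43% of the summed CPM of the 3 VDAC features in F2 and 9.87% in F3, but 53.9% in C2, 44.8% in C3 and 89.6% in C5. The sum itself was 90.8 CPM in F2, 54.1 in F3, 459 in C2, 259.6 in C3 and 960.2 in C5. Fresh-frozen and cryopreserved samples were separate in both quantities. The sum differed by 2.78 on the log2 scale (exact two-sided permutation test, *p* = 0.1, the smallest that 2 against 3 samples can give). After TMM rescaling this difference was 4.03, and after median centring 3.83 (exact permutation *p* = 0.2 each). Long genes weigh more in such a sum, so a share is to be compared between samples and not between genes.

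Ratios of 2 features within a sample, taken on CPM + 1, depend little on how the library was scaled. The log2 ratio of *VDAC2* over *vdac2* AUIFUG00000014199 was -2.56 in F2 and -2.66 in F3, against 1.18 in C2, 0.39 in C3 and 3.92 in C5. The sign was thus negative in each fresh-frozen sample and positive in each cryopreserved sample. The mean difference was 4.44, and that over *vdac2* AUIFUG00000004553 was 3.56 (exact two-sided permutation test, *p* = 0.1 each, and 0.2 after adjustment over the 9 ratios computed). The 2 lower-case *vdac2* features over each other differed by 0.87 with overlapping groups (exact permutation *p* = 0.2).

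Reads of the 3 *vdac2* features, and of the 3 *slc25a5* features, may have been divided between near-identical copies when they were mapped, and how such reads were counted is not given in the sources used here. The split between copies is therefore uncertain, and so is the sum if such reads were left out. In bulk RNA, fewer cells of a type and less RNA per cell cannot be told apart, and this holds for every difference given here.

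Of the carriers, *slc25a5* (AUIFUG00000019820), a form of the carrier found in many proliferating cells of mammals, was nearly level within the fresh-frozen group. Its CPM was 121.3 in F2 and 120.8 in F3, against 390.5 in C2, 283 in C3 and 302 in C5. All 3 cryopreserved samples were more than 2-fold above both fresh-frozen samples, which were nearly equal. The means were 121 ± 0.347 CPM (SD, n = 2) and 325 ± 57.5 CPM (SD, n = 3). Values of a group in this table were not set independently, and whether this narrowed the fresh-frozen SD was not tested. The log2 fold change was 1.40 with an SE of 0.47 (limma FDR = 0.246), so it missed both thresholds. Relative to the median of all features it was 2.42. Within male 2 it was 3.22-fold and within male 3 2.34-fold higher after cryopreservation.

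*SLC25A5* AUIFUG00000043486, which took its name from the table's second annotation, had the lowest FDR after *VDAC2*. It had 36.8 CPM in F2 and 24.97 in F3, against 250.0 in C2, 98.7 in C3 and 114 in C5. The groups did not overlap, and C2 was more than 2-fold above C3 and C5. The means were 30.9 ± 8.37 CPM (SD, n = 2) and 154 ± 83.4 CPM (SD, n = 3). The log2 fold change was 2.18 (SE 0.70, limma FDR = 0.218), or 3.20 above the median of all features. With the male as a replicate block it was called, at 2.34 (SE 0.64, FDR = 0.00808), with an SE and FDR that rest on the prior of limma. It was also called after quantile normalization (FDR = 0.0144) and without C3 (FDR = 0.00794). These fits also called more of all features higher: 1136 with the block, 1420 after quantile normalization and 1840 without C3, against 421 in the main fit.

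*SLC25A5* AUIFUG00000023436 was below 5 CPM in every sample. Its CPM values were 1.81 in F2, 4.25 in F3, 0.969 in C2, 3.47 in C3 and 0.228 in C5. The groups overlapped, since C3 lay above F2. The log2 fold change was -0.80 (SE 0.79, limma FDR = 0.489), or 0.22 above the median of all features. It turned to 0.25 after median centring. The 2 technical replicates of C2 read 0.0614 and 1.88 CPM, farther apart than the group means of 3.03 and 1.55 CPM.

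*SLC25A4* (AUIFUG00000023510) was lower, not higher, in the cryopreserved samples. Its CPM was 20.4 in F2 and 24.1 in F3, against 3.57 in C2, 10.95 in C3 and 0.372 in C5. Each cryopreserved sample was below both fresh-frozen samples, with C5 the lowest and C3 nearest to them. The means were 22.2 ± 2.60 CPM (SD, n = 2) and 4.96 ± 5.43 CPM (SD, n = 3), with a log2 fold change of -2.46 (SE 1.10, limma FDR = 0.265). It was -1.44 relative to the median of all features, and it was called in 1 of 17 other fits, the one without C3 (log2 fold change -3.21, FDR = 0.0259), in which 6965 of 27193 features were called lower. It was -1.65 both without C5 (FDR = 0.225) and with the male as a replicate block (FDR = 0.247), and -1.41 after median centring (FDR = 0.241).

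Groups did not overlap in 6 of the 7 features. Higher in every cryopreserved sample were 5 of 7, against 13.6% of all features tested. Lower in every cryopreserved sample was 1 of 7, against 41.7% of all features. The *p*-value before adjustment was below 0.05 in 4 of the 7 features, against 18.2% of all features tested. Because the members were chosen with earlier results of these data known, these shares describe the members and test nothing. TMM rescaling brought the log2 fold changes of *vdac2* AUIFUG00000014199, *slc25a5* and *SLC25A5* AUIFUG00000043486 to 2.11, 2.67 and 3.42, with none of them called.

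Of 13 marker features of muscle, 9 were lower in every cryopreserved sample than in both fresh-frozen samples and 2 were higher, against 41.7% and 13.6% of all features. Called were 0, against 1.54% of all features tested called higher and 0.0% called lower. Their median log2 fold change was -1.50, against -1.02 over all features. The myosin light chain *mylpf* had 59.4 CPM in F2, 57.5 in F3, 12.8 in C2, 33.7 in C3 and 1.03 in C5, the same order as *SLC25A4* among the cryopreserved samples and also that of the medians of all features. The summed CPM of the list ranged from 355 to 393 in fresh-frozen and from 245 to 538 in cryopreserved samples, of which 516.5 CPM in C5 came from the actin *acta1a* alone. Of these markers, *tnnt3b* and *tnni2* were at 0 in C5. Their part in the values of *SLC25A4* was not tested.

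The 4 carriers summed to 180 CPM in F2 and 174 in F3, and to 645 in C2, 396.0 in C3 and 416 in C5. The groups were apart, with a difference of 1.41 on the log2 scale (exact two-sided permutation test, *p* = 0.1), which was 2.68 after TMM rescaling and 2.46 after median centring (exact *p* = 0.2 each). Of this sum, *slc25a5* held 67.3% and 69.4% in F2 and F3, and 60.5%, 71.4% and 72.6% in C2, C3 and C5, so its share overlapped between the groups. The share of *SLC25A4* was 11.3% in F2 and 13.8% in F3, against 0.553% in C2, 2.77% in C3 and 0.0893% in C5. The share of *SLC25A5* AUIFUG00000043486 was 20.4% and 14.3% in F2 and F3, and 38.8%, 24.9% and 27.3% in C2, C3 and C5. The share of *SLC25A4* was thus lower, and that of this second *SLC25A5* feature higher, in every cryopreserved sample than in both fresh-frozen ones.

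The log2 ratio of *slc25a5* over *SLC25A4* was 2.52 in F2 and 2.28 in F3, against 6.42 in C2, 4.57 in C3 and 7.79 in C5. The groups did not overlap, and their means were 3.86 apart (exact two-sided permutation test, *p* = 0.2). *SLC25A4* over *SLC25A5* AUIFUG00000043486 went from -0.82 and -0.05 to -5.78, -3.06 and -6.38, a mean difference of -4.64 (exact *p* = 0.2). By contrast, *slc25a5* over *SLC25A5* AUIFUG00000043486 differed by only -0.78 (exact *p* = 0.2). The 3 ratios with *SLC25A5* AUIFUG00000023436 differed by 2.20 when it was set under *slc25a5*, 1.66 when it was set over *SLC25A4* and -2.98 when it was set over *SLC25A5* AUIFUG00000043486 (exact *p* between 0.1 and 0.2). The exact permutation *p* after adjustment was 0.2 for all 9 ratios.

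The members are set beside the lists of related genes in the plot of log2 fold changes.

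**Figure D2:**
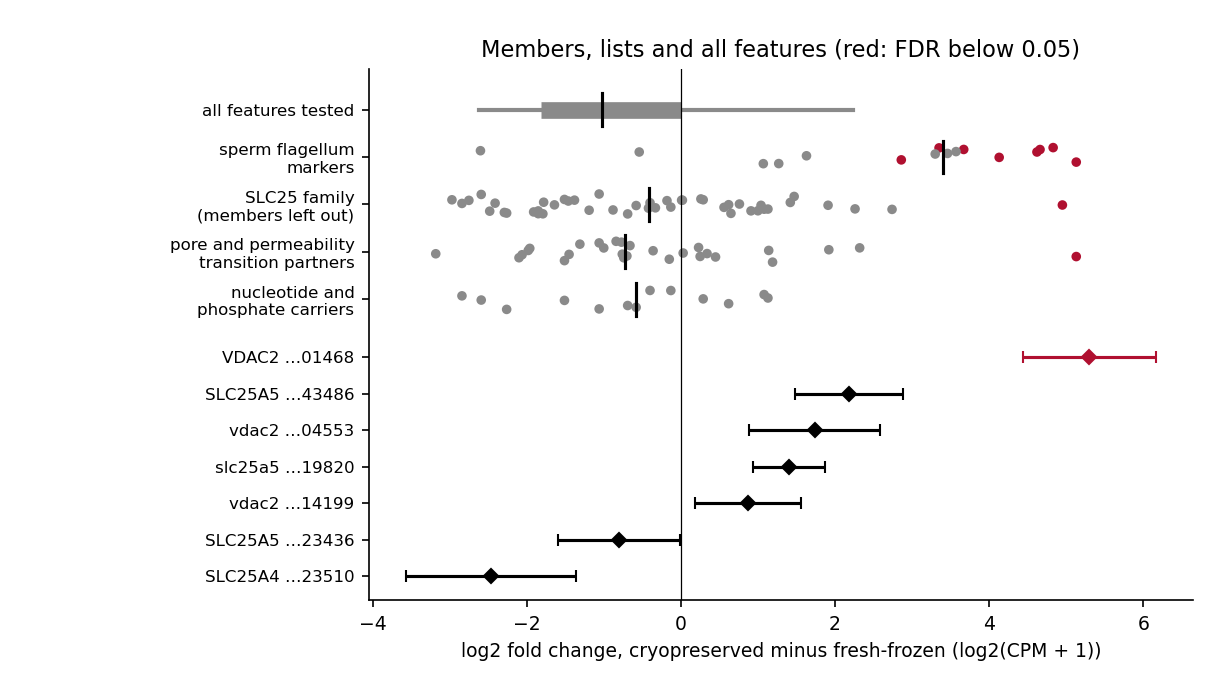
Log2 fold change (cryopreserved minus fresh-frozen, log2(CPM + 1)) of each member with its SE (diamonds and bars), of single features of 4 lists (points, with the list median as a black line), and of all features tested (thick bar from percentile 25 to 75, thin line from 5 to 95, black line at the median of -1.02). Red marks an FDR below 0.05, which *VDAC2* at 5.30 reached and the other 6 members did not.

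Carriers of other nucleotides and of phosphate work beside the ADP/ATP carriers, since ATP synthesis needs phosphate in the matrix. Of 13 such features, 0 were called, against 1.54% of all features tested called higher. In every cryopreserved sample 1 was higher and 6 were lower, against 13.6% and 41.7% of all features. The median log2 fold change was -0.58, against -1.02 for all features tested. The 1 higher feature was *slc25a3* (AUIFUG00000023091), the phosphate carrier, with 148 CPM in F2 and 163 in F3, against 314 in C2, 249 in C3 and 509 in C5. The groups were apart, and the log2 fold change was 1.13 (SE 0.48, limma FDR = 0.265). Its copy *slc25a3a* (AUIFUG00000024140) had 2.17 CPM in F2, 9.19 in F3, 4.19 in C2, 9.58 in C3 and 1.54 in C5, with overlapping groups (log2 fold change -0.13, limma FDR = 0.932). For *slc25a31*, the carrier of male germ cells in mammals, the table held 0 named features.

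The other members of the SLC25 family, to which the ADP/ATP carriers belong, are mostly inner membrane carriers of metabolites and cofactors. Of 46 features of this family with the members left out, 1 rose and 0 fell by the test, against 1.54% and 0.0% of all features tested. All 13 nucleotide and phosphate carrier features are among these 46, so the counts of both lists overlap. In every cryopreserved sample 10 were higher and 16 lower, against 13.6% and 41.7% of all features. The median log2 fold change was -0.41. The feature that rose was *slc25a35* (AUIFUG00000021498), with 18.2 CPM in F2 and 11.6 in F3, against 579 in C2, 156 in C3 and 1231 in C5. Its cryopreserved samples kept the order of *VDAC2*, C3 below C2 below C5, as did those of 84.3% of all features called higher. Its log2 fold change was 4.95 (SE 0.80, limma FDR = 0.0116). The dicarboxylate carrier *slc25a10* (AUIFUG00000009874) came next, with 10.6 CPM in F2, 7.68 in F3, 60.4 in C2, 25.2 in C3 and 183.5 in C5 (log2 fold change 2.74, limma FDR = 0.265).

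Several carriers of this family had low values in C5. *slc25a48* (AUIFUG00000001259) had 55.4 CPM in F2, 72.7 in F3, 9.34 in C2, 34.3 in C3 and 0.537 in C5 (log2 fold change -2.97, limma FDR = 0.265). *slc25a23b* (AUIFUG00000000880), a copy of a calcium-regulated ATP-Mg/phosphate carrier, had 64.1 and 72.2 CPM against 17.9, 44.3 and 0.0490 CPM (log2 fold change -2.84, limma FDR = 0.265). *Slc25a16* (AUIFUG00000004964) had 87.4 and 117.8 CPM against 13.5, 65.3 and 2.69 CPM (log2 fold change -2.75, limma FDR = 0.265). In each of these features, and in *SLC25A4*, C3 was the cryopreserved sample nearest to the fresh-frozen samples and C5 the farthest.

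The third list held genes whose products bind or act with the outer membrane pore, sense calcium or take part in import and the permeability transition. Of its 28 features, 1 rose and 0 fell by the test, against 1.54% and 0.0% of all features tested. In every cryopreserved sample 6 were higher and 8 lower, against 13.6% and 41.7% of all features. The median log2 fold change was -0.72. The gene that rose was *tspo* (AUIFUG00000016505), encoding the translocator protein of the outer membrane, a known binding partner of VDAC in mammals. It had 8.02 CPM in F2 and 4.86 in F3, against 282 in C2, 122 in C3 and 469 in C5, a log2 fold change of 5.13 (SE 0.78, limma FDR = 0.00938). The cryopreserved samples stood in the same order as for *VDAC2*, an order that 84.3% of all features called higher had.

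Next in this list was *smdt1* (AUIFUG00000000659), a small subunit of the calcium uniporter, with 0.353 CPM in F2, 1.198 in F3, 7.05 in C2, 6.15 in C3 and 10.1 in C5 (log2 fold change 2.32, limma FDR = 0.265). A second weak feature, *SMDT1* AUIFUG00000030547, had a log2 fold change of 1.92 (limma FDR = 0.265). Both had fresh-frozen means below 1 CPM (0.775 and 0.583) and passed the filter only through the cryopreserved group. Their place among the 6 higher features of this list therefore tests nothing. The far more abundant *smdt1b* (AUIFUG00000006057) had 38.3 and 40.7 CPM against 46.0, 43.3 and 63.0 CPM (log2 fold change 0.34, limma FDR = 0.755). At the other end, *ckmt1* (AUIFUG00000003307), the mitochondrial creatine kinase that in mammals sits between VDAC and the ADP/ATP carrier, had 44.5 and 37.1 CPM against 1.40, 28.7 and 0.371 CPM (log2 fold change -3.18, SE 1.28, limma FDR = 0.265). Its groups did not overlap, and C3 lay far above C2 and C5. The import receptor *tomm20* had 22.6 and 20.6 CPM against 45.7, 49.3 and 57.2 CPM, and the import pore *tomm40* had 13.5 and 12.8 CPM against 2.61, 7.94 and 0.210 CPM. These last 2 genes were picked after their values were seen, and neither passed the test (FDR = 0.312 and 0.267, limma). The calls of *tspo* and *slc25a35*, like every call over all features, were lost after TMM rescaling, after median centring, with a constant prior and without C2 (0 features called each). For *ppif*, encoding cyclophilin D, the table held 0 features.

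The cryopreserved samples differed from each other, and the members did not share an order.

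**Figure D3:**
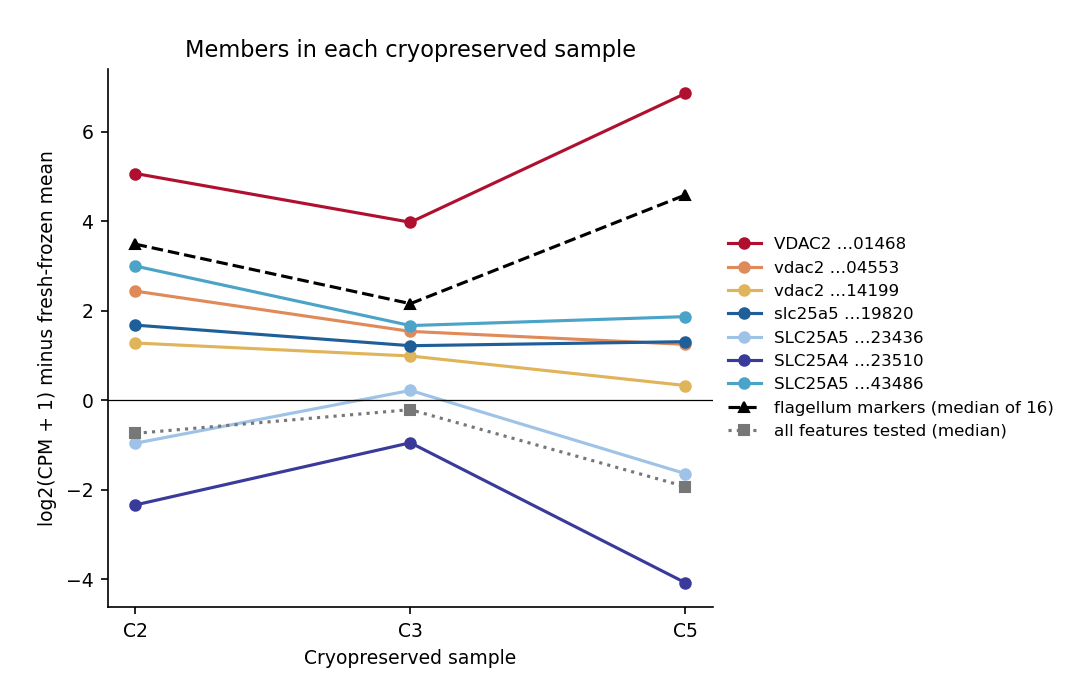
Difference of log2(CPM + 1) from the mean of the fresh-frozen samples in C2, C3 and C5, for the 7 members, the median of 16 flagellum markers (black, dashed) and the median of all features tested (grey, dotted). Lines join the values of 1 feature and stand for no order of the samples: *VDAC2* lay at 5.07, 3.98 and 6.86, and *SLC25A4* at -2.34, -0.95 and -4.08.

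*VDAC2* was lowest in C3, middle in C2 and highest in C5, and it was the 1 member of 7 with that order. Of all features tested, 10.9% had it, and of the 421 features called higher, 355 (84.3%) had it. The other VDAC features and both carriers with higher values in cryopreserved sperm were highest in C2. Against the fresh-frozen mean, *slc25a5* lay 1.68, 1.22 and 1.31 higher in C2, C3 and C5 (log2), and *SLC25A5* AUIFUG00000043486 lay 3.00, 1.67 and 1.87 higher. *slc25a5* was thus nearly level over the cryopreserved samples, in which the median of all features ran from 0.21 to 1.93 below the fresh-frozen mean.

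Most marker features of the sperm flagellum moved with *VDAC2*. Of 16 such features, 14 were higher in every cryopreserved sample and 1 lower, against 13.6% and 41.7% of all features tested. Of the 16, 8 were called higher and 14 had the order C3, C2, C5, against 1.54% and 10.9% of all features, and 0 were at 0 in any sample. The summed CPM of the markers ranged from 710.4 to 712.7 in fresh-frozen and from 3867 to 14490 in cryopreserved samples, with a median log2 fold change of 3.41. The tektin *tekt1*, a protein of the flagellar microtubules, had 98.01 CPM in F2, 104 in F3, 2526 in C2, 1280 in C3 and 5292 in C5. The 1 lower marker was the tektin *tekt3*, with 166.1 CPM in F2, 195.4 in F3, 36.8 in C2, 165.4 in C3 and 3.20 in C5. *Tekt2* overlapped between the groups. *VDAC2* amounted to 1.07% and 0.751% of the summed marker CPM in F2 and F3, and to 3.25%, 3.00% and 5.93% in C2, C3 and C5. It was thus higher relative to this sum in each cryopreserved sample. The sum also holds *tekt3*, which was lower, and relative to single markers this need not hold. *SPAG6* AUIFUG00000017752 had 15.3 CPM in F2, 17.5 in F3, 645.8 in C2, 247 in C3 and 1415 in C5. Relative to this marker, and also to *rsph1*, *VDAC2* overlapped between the groups. The log2 fold change of this *SPAG6* feature was 5.13, the largest of the list, against 5.30 for *VDAC2*. The other *spag6* feature, AUIFUG00000011491, had 43.0 CPM in F2, 36.4 in F3, 822 in C2, 331 in C3 and 1321 in C5. Relative to it, and to each of the remaining markers, *VDAC2* was higher in every cryopreserved sample. *slc25a5* amounted to 17.0% of the sum in both fresh-frozen samples, and to 5.14%, 7.31% and 2.08% in C2, C3 and C5, so relative to the sum it was lower. The part of the flagellum genes in the values of the members was not tested, and these references were chosen after the data were seen.

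Of the markers of other cells that a testis sample can hold, 0 were called. Over all features tested 1.54% were called higher and 0.0% lower, so few calls would be found in lists this short. Meiotic and early germ cell markers (10 features) summed to between 563 and 622 CPM in fresh-frozen and between 273 and 644 CPM in cryopreserved samples. In every cryopreserved sample 0 of them were higher and 3 lower, against 13.6% and 41.7% of all features. Sertoli and Leydig cell markers (6 features) summed to between 170.5 and 181 CPM and between 13.2 and 160.1 CPM, with *inha* at 0 in C5. Of these 6, 1 was higher and 1 lower in every cryopreserved sample. Erythroid markers (6 features) summed to between 249.9 and 278 CPM and between 145.5 and 1054 CPM, with 0 called. The highest sum was that of C2, of which *alas2* held 637 CPM. The globin *hbaa1* and *epb41a* were lower in every cryopreserved sample than in both fresh-frozen samples, *hbaa1* by only 8.58 CPM in F3 against 8.56 in C2. In contrast, *epb41b* was higher in every cryopreserved sample, with 15.3 CPM in F2, 11.65 in F3, 199.2 in C2, 67.6 in C3 and 26.5 in C5. The other erythroid markers overlapped between the groups. C2 was also the sample in which 4 of the 5 members with higher values in cryopreserved sperm were highest, and the part of these cells in those values was not tested.

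Among the features with the pattern most like *VDAC2* over the 5 samples were LOC108263943, LOC108278211 and LOC108280330, whose root mean square difference from it in centred log2(CPM + 1) was 0.161, 0.171 and 0.202 among 13815 named features with a mean above 10 CPM. LOC108263943 had 68.9 CPM in F2, 55.8 in F3, 2273 in C2, 895 in C3 and 5804 in C5. No member was near: the closest, *SLC25A5* AUIFUG00000043486, was at 1.84 with 1520 features closer, and the *vdac2* features AUIFUG00000004553 and AUIFUG00000014199 were at 2.11 and 2.47.

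For *slc25a5* the most like features were *gpx4*, *RNF25*, *FRS2* and *rpain*, at 0.0602, 0.0837, 0.0933 and 0.108. *gpx4*, which encodes a selenium enzyme that reduces lipid peroxides and is a main protein of the sperm midpiece in mammals, had 37.2 CPM in F2, 36.0 in F3, 116.5 in C2, 78.2 in C3 and 85.1 in C5. Of the members, *vdac2* AUIFUG00000014199 was the closest at 0.377 with 456 features closer, followed by *SLC25A5* AUIFUG00000043486 at 0.513 and *vdac2* AUIFUG00000004553 at 0.611. Each of these 4 features had its highest value in C2, unlike *VDAC2*.

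How far the FDR of a member depended on single samples and on scaling is shown for 3 of them.

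**Figure D4:**
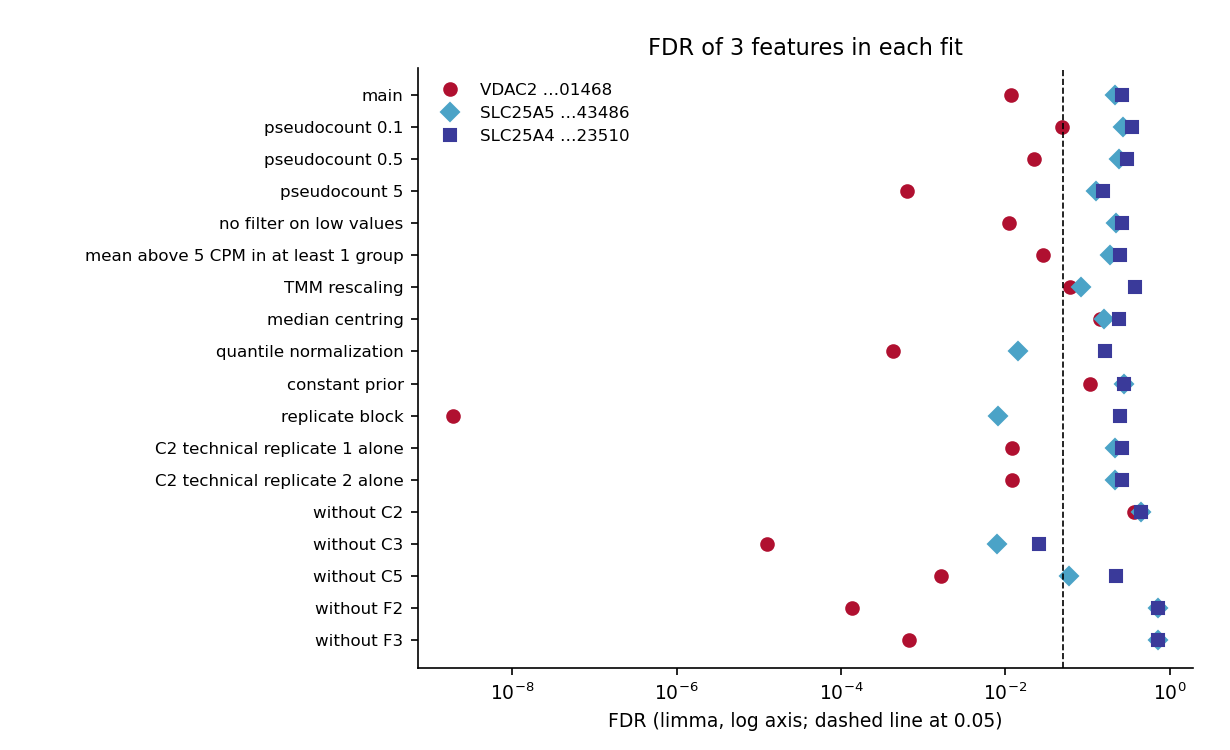
FDR (limma, log axis, dashed line at 0.05) of *VDAC2*, *SLC25A5* AUIFUG00000043486 and *SLC25A4* in the main fit and 17 others. *VDAC2* lies left of the line in all but the 4 fits named with its values, at 0.049 with a pseudocount of 0.1, and *SLC25A4* lies left of it only in the fit without C3.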

How the data were processed

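Sperm RNA was sequenced as polyadenylated, directional libraries. The authors trimmed reads with Trimmomatic 0.39, mapped them with TopHat2 2.1.1 to a blue catfish genome whose build is not given in the sources used here, counted them per gene with HTSeq 1.0 and used edgeR for differential expression. The sample columns that the authors deposited are described as RPKM, but they sum to between 992942.1 and 997457.7 and were treated as CPM. The log2 column that the authors deposited, the average log2 CPM of a feature, was used only to check this unit, and the authors' columns of fold change and *p*-value were not used. Features tied in C3 are tied in all cryopreserved columns (24075 distinct values in C3, and 24075 distinct combinations over all 4 cryopreserved columns). In the fresh-frozen columns, F2 held 14360 distinct values and F3 14380, with only 14392 distinct combinations of both. The values of a group were thus not set independently. What this does to the spread between samples was not tested.

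The 2 technical replicates of C2 were averaged to 1 sample. Values were taken as log2(CPM + 1), and the groups were compared with limma 3.58.1 under R 4.3.3, using a trended prior and the features whose group mean exceeded 1 CPM in either group. Fold changes are on this scale, on which changes of weakly expressed features come out too small. Ratios and sums were tested with exact permutations of the samples (10 arrangements). Samples with the same number come from the same male, and a replicate block for the male was added in another fit. That fit has 1 residual degree of freedom and infinite prior degrees of freedom, so its SE and FDR rest on the prior of limma. C5 has no partner and adds nothing to its fold changes. Where an F sample was left out, the remaining one was assumed to vary like the others. The prior degrees of freedom of the fits without F2 and without F3 were infinite too, so their SE and FDR also rest on the prior. TMM factors were computed without weights on the deposited values. Tables and plots were made with Python 3.11.15, numpy 2.4.6, pandas 2.3.3 and matplotlib 3.10.9.

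The members, gene lists and markers were chosen with earlier results of these data known. From the lists, features with an FDR below 0.05 were named, then those with the largest fold change and separate groups up to 4 in each direction, and all features of *slc25a3*, *slc25a31* and *ppif*. List names matched a symbol or the symbol with an added a, b or l, which also took *mcub* and *tomm40l*, which are separate genes. Likeness was taken for the VDAC and the carrier with the highest mean. A feature that this rule also takes is not reported here. The members *vdac2*, *slc25a4*, *slc25a5* and *slc25a6* have 1 symbol each in the RefSeq annotation Billie_1.0, and *vdac1* and *vdac3* have 0. The table holds 3 features named *vdac2* and 3 named *slc25a5*. Whether each of them is a copy of the named gene was not tested. Coordinates and sequences were not used here.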

Additional observations from a re-analysis of the deposited data

How the results depend on the processing

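Alternatives changed the pseudocount, the filter, the scaling, the prior of limma, the replicate block, the technical replicate of C2, the thresholds and the samples. Of the 7 members, 1 was called higher. It was 0 with a constant prior, with TMM rescaling and with median centring, 2 after quantile normalization and 2 with the replicate block, and between 0 (without C2) and 2 (without C3) when a sample was left out. Members called lower were 0, and between 0 and 1 (without C3) when a sample was left out. Of the 74 list features, 2 were called higher, against 1 with a pseudocount of 0.1, 0 after TMM rescaling, median centring and with a constant prior, and between 0 (without C2) and 5 (without C3) without a sample. List features called lower went from 0 to between 0 and 15 (without C3). Without C3, 1840 of 27193 features were called higher and 6965 lower, and the member and list counts of that fit are to be read beside these. The log2 fold change of *SLC25A5* AUIFUG00000023436 reversed to 0.25 after median centring. No ratio or sum of members changed its direction in the alternatives run for it.

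Over all features, 421 were called higher and 0 lower. The number called higher and lower was 156 and 0 with a pseudocount of 0.1, 670 and 4 with 5, 1420 and 100 after quantile normalization, 1136 and 120 with the replicate block, 657 and 8 at an FDR of 0.1, 1840 and 6965 without C3, 846 and 25 without C5, 263 higher without F3, and 0 after TMM rescaling, median centring, a constant prior or without C2. In the main fit, 1561 features above a log2 fold change of 2 and 2550 below -2 had an unadjusted limma *p* below 0.05. The median log2 fold change of all features went from -1.02 to -0.12 after TMM rescaling and 0.03 after median centring. The table holds no read counts, and counting error was not computed, which bears most on features near 1 CPM such as *SLC25A5* AUIFUG00000023436.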
